A study of Bos taurus with 14 samples.

Results

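The genes described here encode the protein part of the cytosolic ribosome, as transcribed in the longissimus dorsi, the long muscle beside the spine, of 14 female cattle. They were taken by symbol: every row of the count table with reads whose name is RPL or RPS followed by a number (with the suffixes A, X, Y or L), or RPLP0, RPLP1, RPLP2 or RPSA. The rule took 82 of 18078 rows, which carry 81 symbols because RPS29 stands on 2 rows. Of the 82, 48 are named for the large 60S subunit and 34 for the small 40S subunit, and all 82 passed the filter on low counts and were tested.

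The animals fall into 2 groups of 7 by what their dams were fed in late pregnancy. Dams of the restricted group received less than the control dams from gestation day 158 until birth, at 70% of the requirement in one of the submitters' texts and 50% in another. Dams of the control group received 100%. All calves were managed alike after birth, had free access to feed from postnatal day 301 and were slaughtered on postnatal day 485, so the muscle was sampled long after the feeding difference ended. The labels do not say whether any animals share a dam or sire, so each animal is treated as a separate one.

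A ribosome is built from ribosomal RNA and many ribosomal proteins, most of them in about equal numbers. The genes of these proteins are known to be expressed in a coordinated way. Their mRNAs begin with a short pyrimidine-rich stretch, the TOP motif, through which growth signalling by mTORC1 controls their translation. Skeletal muscle and heart are known, in human and mouse, to make RPL3L, a tissue-restricted form of RPL3, the large subunit protein that reaches toward the peptidyl transferase centre.

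Of the 79 protein genes of the mammalian ribosome looked for, 75 were found under their own symbol. FAU, which encodes RPS30 fused to a ubiquitin-like protein, does not have a name of the RPL or RPS form and so is not among the 82. RPL31 and RPL41 are not analysed here. A further 20 rows without a symbol are described in the table as ribosomal proteins of either subunit, but they held 16756 reads against 3783843 for the 82 genes, which is 0.443%. The remaining 6 symbols are paralogs of core proteins: RPL3L, RPL7L1, RPL22L1, RPL26L1, RPS27L and RPS4Y1. Ribosomal protein genes have many processed pseudogenes, and how reads with several alignments were counted is not given in the sources used here, so the level of each gene is uncertain to that extent.

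Libraries held between 13631018 and 17325779 gene counts, and levels are given as CPM, the count of a gene relative to the scaled total of its library. Summed CPM of 12 fast fibre marker genes lay between 139893 and 176967 in restricted animals and between 136833 and 167445 in control animals. Genes of fast skeletal muscle fibres were thus present in every library. Control 3 stood apart for the genes described here, with the highest value of all 14 animals for 68 of the 82. In whole muscle, fewer cells of a type and less RNA per cell cannot be told apart.

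Ribosomal protein transcripts made up a small and similar part of the counts in both groups. The share was 1.67% ± 0.0960 in restricted animals and 1.74% ± 0.193 in control animals (SD, n = 7 each). In restricted animals the lowest share was 1.502%, the median 1.68% and the highest 1.79%, and in control animals the lowest was 1.597%, the median 1.66% and the highest 2.13%. The groups overlapped between 1.597% and 1.79%. Control 3, at the top, and control 7, at 1.86%, lay above every restricted animal, and restricted 5, at the bottom, lay below every control animal. Without control 3 the control animals averaged 1.67% ± 0.0979 (SD, n = 6). The 60S genes took 0.992% ± 0.0470 of counts in restricted animals and 1.03% ± 0.112 in control animals. The 40S genes took 0.682% ± 0.0497 in restricted animals and 0.707% ± 0.0815 in control animals. The balance of the subunits varied less than either: the ratio of 60S to 40S counts was 1.46 ± 0.0449 in restricted animals and 1.46 ± 0.0227 in control animals, and lay between 1.42 and 1.53 in all 14.

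Levels differed widely between the genes even though most of their proteins stand in about equal numbers in the ribosome. Per kilobase of annotated gene length, the median of the 82 was 202 CPM per kb, against 4.75 CPM per kb for all 12187 genes tested. That length was 3202 bases for RPSA and 332 bases for RPS28. How far it matches the mRNA made in muscle was not tested, so values per kb depend in part on the annotation. Of the 82, 64 lay between 100 and 500 CPM per kb, 3 lay above and 15 below. Those above included RPLP1 at 2081 CPM per kb and RPS3A at 554 CPM per kb. RPLP1 encodes an acidic protein of the stalk that recruits the translation GTPases to the 60S subunit, and it had 971.8 to 1264 CPM in restricted animals (median 1061) and 880.8 to 1306 CPM in control animals (median 1017). Its partners in the stalk were lower, with RPLP0 at 450.3 CPM per kb and RPLP2 at 122 CPM per kb. The core genes had a median of 201 CPM per kb for the 60S subunit and 254 CPM per kb for the 40S subunit.

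**Figure D1:**
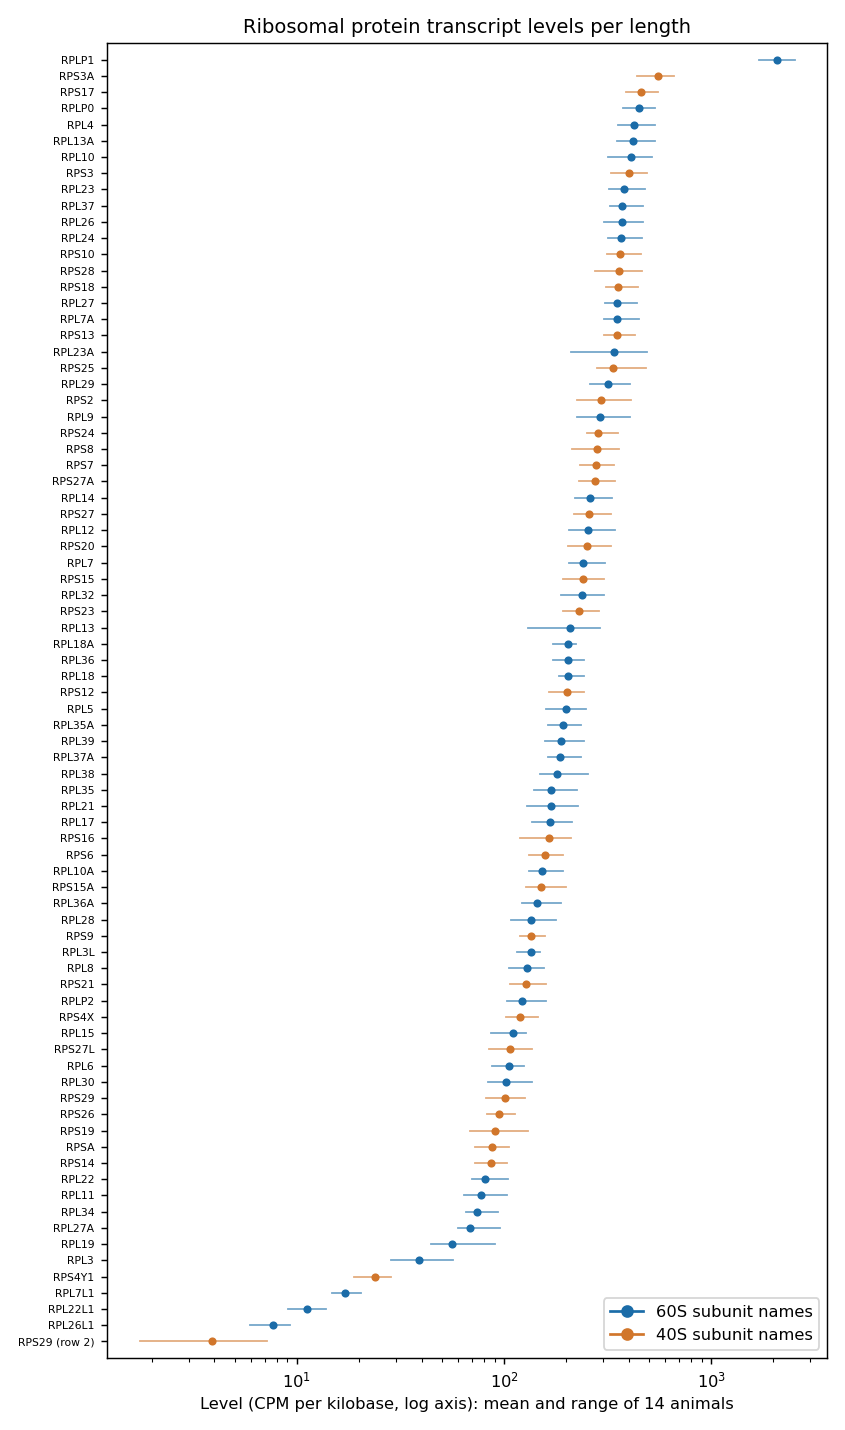
Level of the ribosomal protein genes shown in CPM per kilobase of gene length on a log axis, with the mean of 14 animals as a point and their range as a line, coloured by subunit. Most genes lie between 100 and 500 CPM per kb, RPLP1 stands alone at 2081, and at the low end stand RPL3, 4 of the 6 paralogs and the second row of RPS29.

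In CPM, which takes no account of length, the highest values after that of RPLP1 belonged to RPL4, RPS2, RPL10 and RPLP0, with mean levels over all animals of 659, 655, 555 and 501 CPM. RPS2 lines the mRNA entry of the 40S subunit, and RPL10 is among the last proteins to join the 60S subunit. Apart from the second row of RPS29, the lowest core gene was RPL3, at 38.8 CPM per kb, followed by RPL19 at 56.0 CPM per kb. Among the paralogs RPL3L (134 CPM per kb) and RPS27L (107 CPM per kb) reached the range of core genes, while RPS4Y1 (23.7 CPM per kb), RPL7L1 (17.2 CPM per kb), RPL22L1 (11.1 CPM per kb) and RPL26L1 (7.67 CPM per kb) did not. The second row of RPS29 (ENSBTAG00000025666) held only 4 to 19 counts per animal, against a mean of 110.3 CPM for the first row (ENSBTAG00000052337), and its values rest on few reads.

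The first comparison asks whether restriction of the dam left a difference in these transcripts in grown offspring. No ribosomal protein gene passed the test: 0 of 82 were called at an adjusted p under 0.05 in the edgeR quasi-likelihood fit, with Benjamini-Hochberg adjustment over 12187 genes, beside 0 of all genes (0%). Of the 82, 1 gene, RPL15, had an unadjusted p under 0.05, where 518 of all genes did (4.25%). Leaving out single animals gave 0 such genes (without control 1, control 2, control 5, restricted 1 or restricted 3), 2 (without control 4, restricted 5, restricted 6 or restricted 7) or 3 (without control 3, with RPL26L1 and RPS6 beside RPL15). Without control 6, control 7, restricted 2 or restricted 4 it gave 1, which was RPL7 without control 7 and RPL3 without restricted 4. The DESeq2 and limma voom fits likewise called 0 of the 82, each with 1 at an unadjusted p under 0.05. In no gene of the 82 were the groups free of overlap, as against 7 of all genes (0.0574%).

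Fitted differences, restricted over control, were small in both directions. The log2 fold change was above 0 for 37 of the 82 and below 0 for 45, where 49.7% of all genes were above. That split followed single animals: leaving out each in turn gave between 19 (without control 4 or control 6) and 70 (without control 3) of the 82 above 0. It came to 52 without control 7, to 63 without restricted 5 and to 25 without control 2. The median log2 fold change was −0.00716 for the 82, −0.0143 for the 60S genes, 0.00029 for the 40S genes and −0.000794 for all genes. Without control 3 the median of the 82 was 0.0573.

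What the data limit is the size of a difference. The 95% interval of the fold change lay wholly inside 1.2-fold in either direction for 61 of the 82 (74.4%), against 27.9% of all genes, and inside 1.5-fold for 81 of the 82 (98.8%), against 77.8%. The exception at 1.5-fold was the second row of RPS29. Without control 3, 59 of the 82 had an interval inside 1.2-fold, and the lowest count with any one animal left out was 50. The median distance from the estimate to either end of its interval was 0.193 on the log2 scale for the 82 and 0.26 for all genes. Of the 82, 67 had a mean above 100 CPM, and intervals are wider for genes with fewer reads. The share among genes of like level was not computed, so the gap from all genes cannot be read as particular to these 82.

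**Figure D2:**
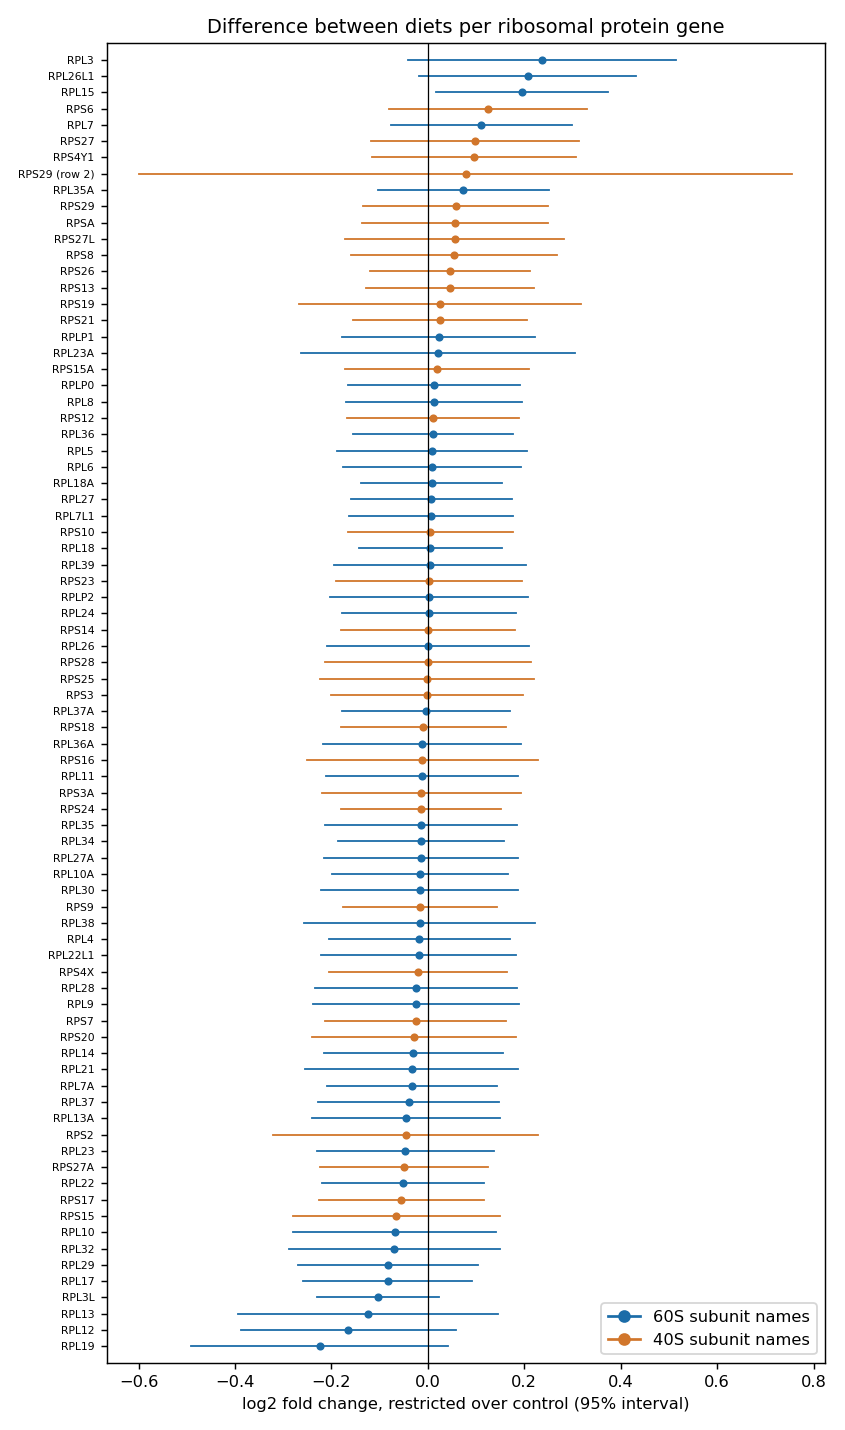
Log2 fold change of the ribosomal protein genes shown, restricted over control, with its 95% interval from edgeR's quasi-likelihood fit (7 animals a group), ordered by size and coloured by subunit. The points run from −0.22 for RPL19 to 0.24 for RPL3, and RPL15 is the one gene whose interval leaves out 0 before adjustment.

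RPL15, a core protein of the 60S subunit, had the smallest unadjusted p. It had 280.7, 255.9, 271.0, 277.4, 249.4, 234.3 and 251.1 CPM in restricted animals 1 to 7, and 198.1, 189.4, 279.7, 246.3, 225.9, 244.3 and 205.9 CPM in control animals 1 to 7. Of the control animals, control 3 lay just under the top of the restricted range, control 4 and control 6 lay inside it and the other 4 lay below it. The fold was 1.14 (95% interval 1.01 to 1.30), with an unadjusted p of 0.0343 and an adjusted p of 1.0 by edgeR's quasi-likelihood test (0.879 to 1.0 over the alternative settings).

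RPL3 had 42.9 to 78.5 CPM in restricted animals (median 56.2) and 39.2 to 59.2 CPM in control animals (median 48.3). Restricted 1, restricted 2 and restricted 7 lay above every control animal, and the other restricted animals lay among them. Its fold was 1.18 (0.972 to 1.43). RPL26L1, a paralog of RPL26 at a low level, had 4.91 to 6.46 CPM in restricted animals and 4.14 to 5.67 CPM in control animals, a fold of 1.15 (0.988 to 1.35). RPS6, the 40S protein phosphorylated by S6 kinase downstream of mTORC1, had 154.6 to 212.0 CPM in restricted animals and 151.4 to 221.9 CPM in control animals, a fold of 1.09 (0.946 to 1.26). RPL7 had a fold of 1.08 (0.948 to 1.23), and the 2 groups overlapped in each of these genes.

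On the other side, RPL19 had 42.1 to 61.6 CPM in restricted animals (median 47.0) and 47.0 to 86.3 CPM in control animals (median 52.8). Control 3 held the 86.3 CPM, and control 7 was next at 62.3 CPM. The fold was 0.856 (0.711 to 1.03). RPL12, at the base of the stalk, had a fold of 0.892 (0.765 to 1.04), RPL3L of 0.931 (0.853 to 1.02) and RPL17 of 0.944 (0.836 to 1.07). None of these intervals leaves out a fold of 1, and the adjusted p of each of the 82 was 1.0 by edgeR's quasi-likelihood test.

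The second question is how far the genes move together from animal to animal. Over the 14 animals the median Pearson correlation of log2 CPM between 2 ribosomal protein genes was 0.653 (3321 pairs), and 97.5% of pairs were above 0. The same median was −0.00155 for all genes tested and 0.0384 for the 2169 genes with a mean of 50 to 1100 CPM. It was 0.203 for the 76 genes of the mitochondrial ribosome. These are descriptions over pairs that share the same 14 libraries and their scaling. Pairs within the 60S subunit had a median of 0.612, pairs within the 40S subunit 0.697 and pairs between the subunits 0.660. For the 75 core genes alone it was 0.698.

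**Figure D3:**
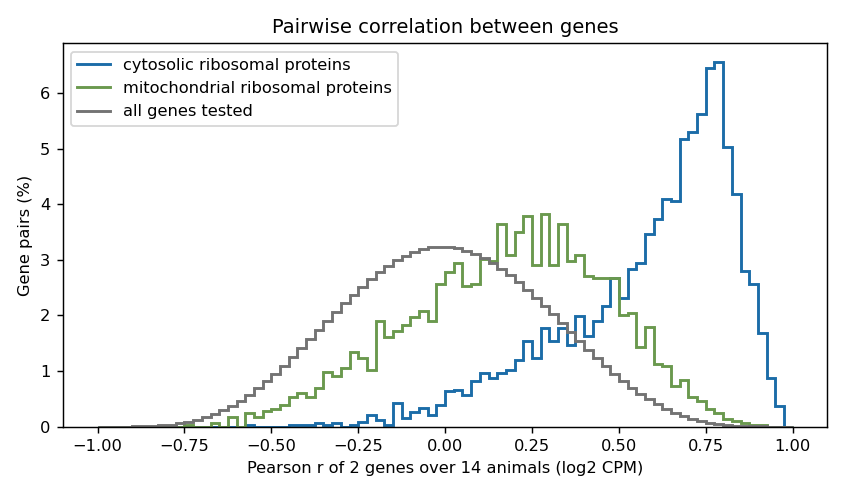
Distribution of the Pearson correlation between 2 genes over 14 animals (log2 CPM), as a percent of gene pairs, for 82 cytosolic ribosomal protein genes, 76 mitochondrial ribosomal protein genes and all 12187 genes tested. The cytosolic set piles up at high values, with a median of 0.653, against 0.203 and −0.00155. The sets were not matched for level.

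Part of this covariation rests on control 3. Its mean log2 level over the 82 genes was 0.33 above the mean of all animals, with control 7 next at 0.12, and the lowest were restricted 5 at −0.18 and control 4 at −0.15. Without control 3 the median pairwise correlation was 0.506. It was 0.499 within the 7 restricted animals and 0.810 within the 7 control animals, and 0.593 in control animals when control 3 was left out. Those group values were not tested against each other. The first principal component of the 82 genes held 55.7% of their variance, or 41.1% without control 3, and the second held 13.3%.

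The mean log2 CPM of the 82 was 7.24 ± 0.0985 in restricted animals and 7.23 ± 0.170 in control animals (SD, n = 7 each), a difference of 0.00314 where the SD over all 14 was 0.134. Without control 3 the mean of the control animals was 7.18 ± 0.0978 (SD, n = 6) and the difference was 0.058. Neither difference was tested.

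**Figure D4:**
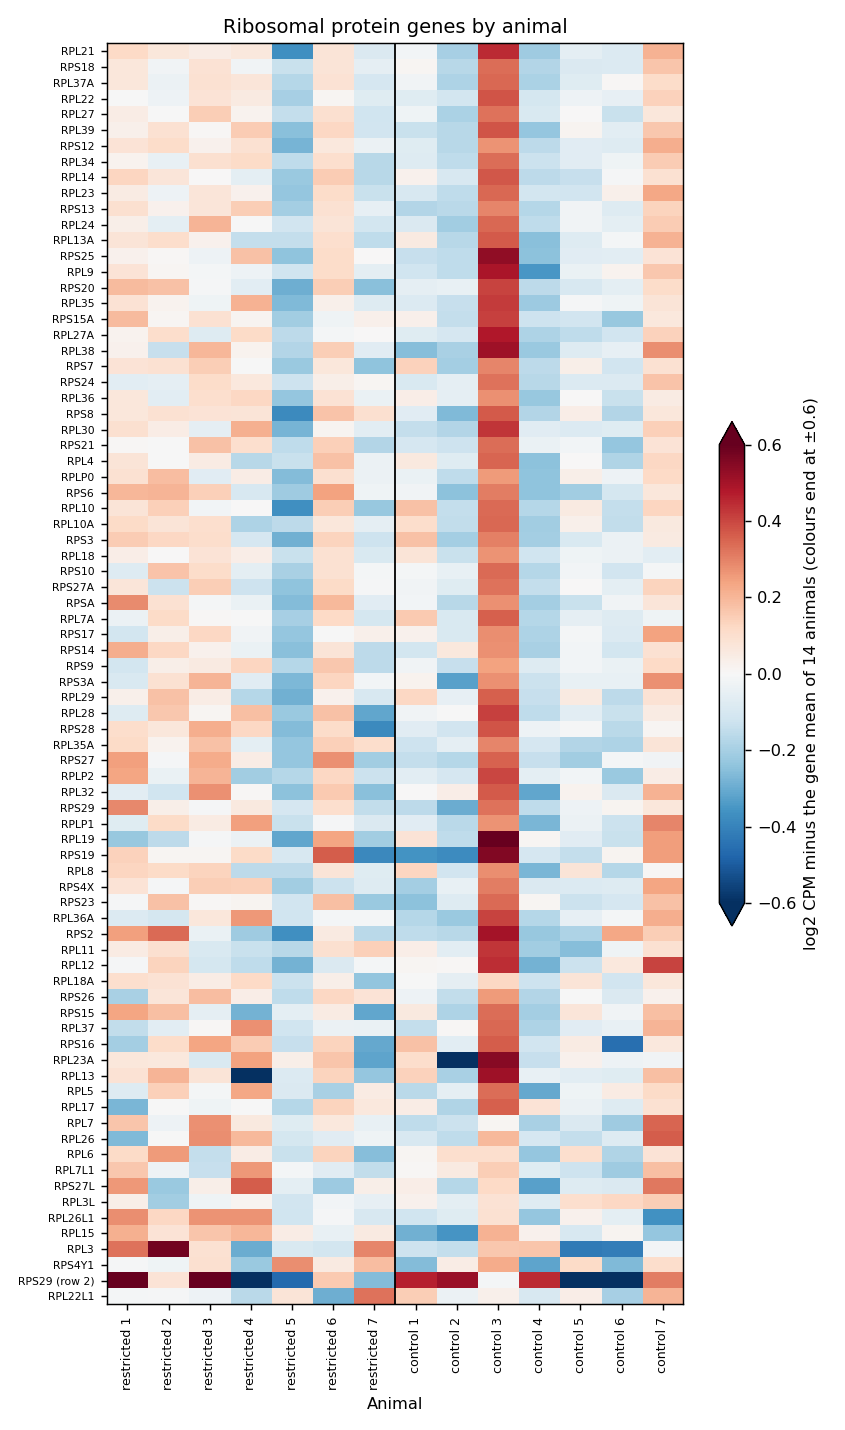
Log2 CPM of the ribosomal protein genes shown in each animal, minus the mean of each gene over 14 animals, with restricted animals on the left and control animals on the right, and genes ordered from the top by their correlation with the mean of the others. Control 3 is red and restricted 5 is blue for most genes, and the rows at the bottom, among them RPL3, RPL15 and the paralogs, follow other patterns.

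Most core genes tracked the mean of the other 81 closely. The correlation was above 0.8 for 51 genes, between 0.5 and 0.8 for 22 and below 0.5 for 9, with a median of 0.833. Without control 3 the median was 0.744 and 25 genes were above 0.8. The 5 highest were RPL21 (0.972), RPS18 (0.963), RPL37A (0.943), RPL22 (0.942) and RPL27 (0.939). RPL21 had 233.7 to 327.1 CPM in restricted animals, lowest in restricted 5, and 260.0 to 410.6 CPM in control animals, highest in control 3.

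The 9 genes below 0.5 included all 6 paralogs. The correlation with the mean of the others was −0.033 for RPL22L1, 0.26 for RPS4Y1, 0.33 for RPL26L1, 0.34 for RPL3L, 0.43 for RPS27L and 0.45 for RPL7L1. The other 3 were the sparsely covered second row of RPS29 (0.19) and the core genes RPL3 (0.27) and RPL15 (0.33). RPL3 and RPL15 are thus both the core genes least like the rest and 2 of the 3 with the highest fold between diets, and neither measure was tested against the other. Counts per animal were low for RPL26L1, at 66 to 103, and for RPL22L1, at 155 to 286, and high for RPL15, at 2827 to 4634.

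The genes also differed in their spread over animals. The SD of log2 CPM over 14 animals had a median of 0.169 in the 82 genes, 0.158 in the 2169 genes of 50 to 1100 CPM and 0.231 in all genes. Relative to the mean of the other ribosomal protein genes it was 0.0974. RPL3L had the lowest SD of the 82, at 0.099. After the second row of RPS29 the highest were RPL3 (0.29), RPS19 (0.28), RPL23A (0.27) and RPL13 (0.27). RPL13 was lowest in restricted 4, at 120.6 CPM against a restricted median of 200 CPM, and RPL23A was lowest in control 2, at 104.1 CPM against a control median of 162.5 CPM. RPS19, whose human form is mutated in Diamond-Blackfan anaemia, ran from 96.6 to 162.1 CPM in restricted animals and from 97.1 to 185.5 CPM in control animals.

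The muscle paralog RPL3L outnumbered RPL3 in every animal. RPL3L had 209.1, 176.0, 200.4, 206.0, 188.4, 201.6 and 196.7 CPM in restricted animals 1 to 7, and 207.3, 195.9, 216.6, 193.6, 218.6, 222.3 and 225.8 CPM in control animals 1 to 7. RPL3 had 66.0, 78.5, 56.2, 42.9, 49.5, 48.8 and 64.5 CPM in the same restricted animals, and 48.3, 47.7, 59.0, 59.2, 39.2, 39.5 and 52.0 CPM in the same control animals. The lowest RPL3L and the highest RPL3 were both in restricted 2. The geometric mean of the ratio of RPL3L to RPL3 over 14 animals was 3.87, equal to a share of 79.5% for RPL3L, or 3.52 per kilobase.

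The ratio of RPL3L to RPL3 counts was 3.17, 2.24, 3.57, 4.80, 3.81, 4.13 and 3.05 in restricted animals 1 to 7, and 4.29, 4.10, 3.67, 3.27, 5.57, 5.63 and 4.34 in control animals 1 to 7. Control 5 and control 6 lay above all other animals, restricted 2, restricted 7 and restricted 1 lay below all others, and the groups overlapped between. The geometric mean was 3.45 in restricted animals and 4.33 in control animals. The log2 ratio differed by −0.33, restricted minus control (95% interval −0.71 to 0.048), an exact two-sided permutation p of 0.0804, or 0.451 after Benjamini-Hochberg adjustment over the 6 paralog pairs. The difference did not pass the test, and it rested in part on restricted 2, without which it was −0.23. The unadjusted exact permutation p was 0.0297 without restricted 4 and 0.0408 without control 4. The smallest p that 7 against 7 animals allow is 0.000583.

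**Figure D5:**
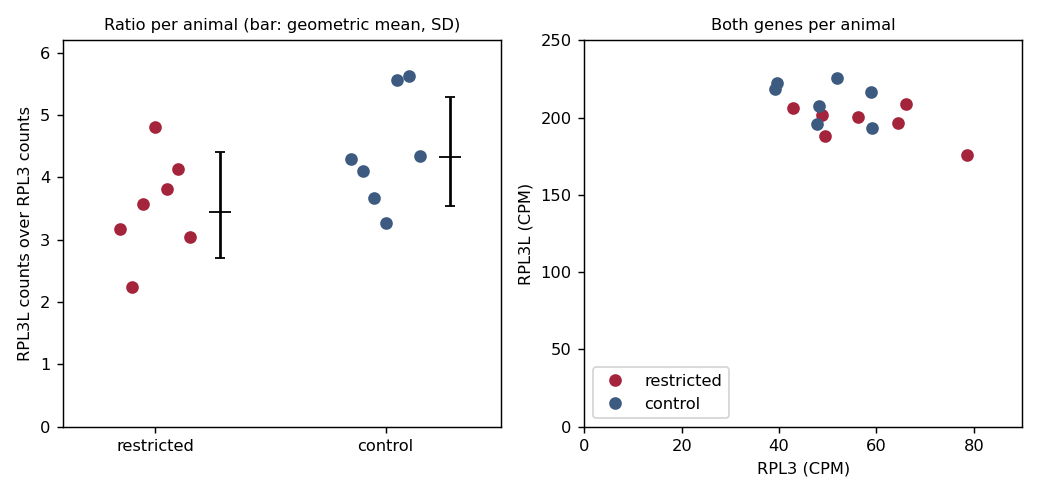
Left, ratio of RPL3L to RPL3 counts in each animal, with the geometric mean and SD of each group (n = 7 each), and right, CPM of both genes per animal. Restricted animals average 3.45 and control animals 4.33 with wide overlap, and RPL3L exceeds RPL3 in all 14.

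Across the 14 animals RPL3L tended to be lower where RPL3 was higher, a relation that did not hold after adjustment. Pearson's r of log2 CPM was −0.57 (permutation p = 0.0347, or 0.243 after Benjamini-Hochberg adjustment over 7 relations), and Spearman's rho was −0.42 (permutation p = 0.136, adjusted 0.476). Without restricted 1 and restricted 2, the animals farthest out in RPL3, r was −0.41 (permutation p = 0.181), and the relation no longer held. It leaned on restricted 2: r was −0.33 without that animal alone and −0.64 without restricted 1 alone. Among the 9 animals whose titles end in the letter A, r was −0.24 (permutation p = 0.530), and with the group means removed it was −0.45. The ratio of RPL3L to RPL3 showed little relation to the mean level of the other ribosomal protein genes (r −0.12, rho −0.042).

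In the other 5 pairs the paralog was the lower member in every animal. RPS27L came closest, with a geometric mean ratio to RPS27 of 0.493, and in human cells it is known as a target of p53. RPL7L1, known in human cells for a role in 60S assembly, stood at 0.163 of RPL7, RPS4Y1 at 0.162 of RPS4X, RPL22L1 at 0.0927 of RPL22 and RPL26L1 at 0.0280 of RPL26. None of these log2 ratios passed a test of the difference between the groups. By the exact two-sided permutation test the differences, restricted minus control, were 0.20 for RPL26L1 (95% interval −0.053 to 0.49; p = 0.177, adjusted 0.451) and 0.12 for RPS4Y1 (−0.14 to 0.38; p = 0.355, adjusted 0.533). They were −0.11 for RPL7L1 (−0.31 to 0.069; p = 0.226, adjusted 0.451), −0.044 for RPS27L (−0.34 to 0.25; p = 0.753, adjusted 0.892) and 0.017 for RPL22L1 (−0.24 to 0.28; p = 0.892, adjusted 0.892), by the same exact permutation test.

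None of these 5 paralogs passed a test of correlation with its parent over all animals. Pearson's r across the 14 animals was 0.43 for RPL7L1 with RPL7 (permutation p = 0.126), 0.29 for RPS27L with RPS27 (permutation p = 0.313) and 0.22 for RPS4Y1 with RPS4X (permutation p = 0.455). It was −0.015 for RPL22L1 with RPL22 (permutation p = 0.957) and 0.0047 for RPL26L1 with RPL26 (permutation p = 0.987). Spearman's rho was 0.43 for RPL7L1 (permutation p = 0.126), 0.20 for RPS27L (permutation p = 0.505) and 0.16 for RPS4Y1 (permutation p = 0.583). It was −0.077 for RPL22L1 (permutation p = 0.795) and 0.046 for RPL26L1 (permutation p = 0.880), and no p adjusted over the 7 relations was under 0.05. Without the 2 animals farthest out in the parent gene, control 7 and restricted 3, r for RPL7L1 with RPL7 was 0.62 (permutation p = 0.0307).

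The symbol RPS4Y1 calls for care in females. The table describes ENSBTAG00000025617 as Y-linked, yet each of the 14 females had 296 to 499 counts on it. In the RefSeq table of the assembly ARS-UCD2.0, which is not the build of the counts, the gene of that symbol lies between SRSF3 and CDKN1A, which are autosomal genes in human. The row is called by its symbol here, and the chromosome of its gene in the build of the counts was not looked up. The row named RPL36A is likewise described in the table as the L36a-like form. It was counted by its symbol as a core gene, not as a paralog, and its correlation with the mean of the others was 0.76.

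Ribosomal proteins are made and used with other factors, and lists of these were read beside the 82. None of the genes on these lists was called between diets by edgeR's quasi-likelihood test, and the median log2 fold changes ran from −0.016 to 0.042. Of 15 elongation factors and other TOP mRNA products tested, 0 had an unadjusted p under 0.05, with TPT1 at 3752 ± 534 CPM in restricted animals and 3918 ± 575 CPM in control animals, and EEF1A2, the elongation factor form of adult muscle, at 3580 ± 441 CPM in restricted animals and 3341 ± 217 CPM in control animals (SD, n = 7 each). Of 29 initiation factors 1 did, EIF3L, at 97.1 ± 3.44 CPM in restricted animals and 88.7 ± 6.46 CPM in control animals (SD, n = 7 each), a fold of 1.10. The most abundant initiation factors were EIF4G2, at a fold of 0.995, and EIF1, at a fold of 0.956.

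Of 49 ribosome assembly factors, which include RPL7L1, 0 had an unadjusted p under 0.05. SBDS, which releases eIF6 from the new 60S subunit, had a fold of 1.02, and NCL, nucleolin, a fold of 0.922. Among 25 genes of RNA polymerase I and III and their factors there were 0, with MAF1, a repressor of RNA polymerase III, at a fold of 0.934 and UBTF, a factor of ribosomal RNA gene transcription, at 0.9999. Among 21 regulators of ribosomal protein synthesis there were 0, with EEF2K at a fold of 0.997 and LARP1, which binds the TOP motif, at 0.965. Of 76 mitochondrial ribosomal protein genes 3 were higher and 1 was lower at an unadjusted p under 0.05, where 2.17% of all genes were higher and 2.08% lower. These were MRPS31, MRPL47 and MRPL33, with folds of 1.202, 1.16 and 1.11, and MRPL41, with a fold of 0.804.

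The lists differed in how closely they followed the 82 genes over the 14 animals. The correlation of a list's mean log2 CPM with that of the 82 was 0.899 for elongation factors and TOP partners (0.823 without control 3), 0.822 for mitochondrial ribosomal proteins (0.675) and 0.754 for initiation factors (0.717). It was 0.567 for assembly factors (0.268), 0.217 for regulators (0.243) and 0.099 for RNA polymerase I and III (−0.168). These lists share libraries and scaling with the 82, and no test was made.

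Among single genes outside the 82, 27 of 12105 (0.223%) had a correlation above 0.8 with their mean. Among the 10 highest were MRPL45 (0.917), RACK1 (0.894), POLDIP2 (0.878), the unnamed ENSBTAG00000009783 (0.877), TUBA4A (0.869), EEF1B2 (0.861), EIF3K (0.858), FAU (0.852) and HSPE1 (0.852). RACK1 is a scaffold protein bound to the 40S subunit and FAU supplies its RPS30, so 2 of the 10 encode parts of the ribosome that the naming rule leaves out. EEF1B2 exchanges the nucleotide on the elongation factor eEF1A and EIF3K is a subunit of eIF3. RACK1 had 501.8 ± 46.6 CPM in restricted animals and 517.6 ± 73.1 CPM in control animals, and FAU had 129.7 ± 10.6 CPM in restricted animals and 128.1 ± 14.7 CPM in control animals (SD, n = 7 each).

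Markers of other cell types and of the fibre types were set beside the ribosomal protein level. The correlation with the mean of the 82 was −0.26 for 10 fibroblast and matrix genes (−0.12 without control 3), −0.36 for 9 endothelial genes (−0.20), −0.14 for 11 of 13 leukocyte genes (−0.080) and 0.41 for 8 adipocyte genes (0.27). It was 0.27 for 12 fast fibre genes (0.56 without control 3) and 0.14 for 10 slow fibre genes (0.15). Mean log2 CPM of the fast fibre genes was 12.57 ± 0.0908 in restricted animals and 12.43 ± 0.157 in control animals (SD, n = 7 each). For slow fibre genes it was 10.42 ± 0.320 in restricted animals and 10.42 ± 0.342 in control animals. Fitted folds were above 1 for 11 of the 12 fast and 4 of the 10 slow fibre genes, where 49.7% of all genes were. None of these fibre genes was called between diets. Summed CPM ran from 799 to 1745 in restricted animals and 654 to 1520 in control animals for fibroblast genes, and from 195 to 273 in restricted animals and 191 to 308 in control animals for endothelial genes. For leukocyte genes it ran from 30.0 to 52.6 in restricted animals and 22.9 to 54.4 in control animals, with CD2 and CD52 below the filter on low counts. For adipocyte genes it ran from 169 to 410 in restricted animals and 225 to 342 in control animals. The part of these cells in the results was not tested.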

How the data were processed

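RNA sequencing libraries of 14 animals were analysed from a deposited table of raw counts per gene, whole numbers without normalization. Per the submitters' processing notes, FastQC, HISAT2, featureCounts and edgeR were used with the build ARS-UCD1.2. Tool versions, gene annotation, strandedness and the handling of multiply aligned reads were not given in the sources used here, so overlapping or antisense genes cannot be told apart. Gene lengths were those deposited, and 0 columns of values per animal were left unused. Animals are numbered within each group by accession, and a shared number links no animals.

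The edgeR package (4.0.16, under R 4.3.3) was used for the counts. The filterByExpr filter (minimum count 10, minimum total 15) left 12187 of 18078 genes, and TMM factors scaled the libraries. Groups were compared with the quasi-likelihood test and Benjamini-Hochberg adjustment over all genes tested, at a threshold of 0.05, with 95% intervals. Alternatives used DESeq2 1.42.0, limma 3.58.1 (voom), other scalings, no filter, title letters as covariates and left-out animals. Correlations used log2 CPM with a prior count of 2, and permutation p-values of correlations came from 100000 resamples. Paralog ratios were log2 ratios of counts plus 0.5, tested by exact two-sided permutation over animals. Library pairs differed beyond sampling noise (smallest chi-square per degree of freedom 12.8). p-values for the groups set the difference against the spread between these animals, and counts limit precision for genes with few reads. The procedure was tested on simulated data.

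The members and lists were chosen with earlier results of these data known. Named ribosomal protein genes were the 5 with the smallest p in each direction, the 5 with the highest mean CPM, the 5 with the largest SD, the 5 least correlated with the others and all paralogs with their parents. Other named genes were the 2 most abundant of each translation list and the 10 non-members most correlated with the members' mean. Genes of a list with a small unadjusted p, the genes highest per kilobase, those most correlated with the others, and RPLP2 were named after their values were seen. A few genes that enter the fits and the counts are not reported here by name, in the text or the figures. Symbols came from the table, and all 81 matched the RefSeq table of ARS-UCD2.0, which served only for names and neighbours.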

Additional observations from a re-analysis of the deposited data

Results flagged for a closer look

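Of 68 groups of 7 animals examined for the named genes and paralog ratios, 5 held a value far from the others of its group, and chance gives about 1 in 20. In control animals, RPL7 was 333 CPM in control 7, where the others lay between 225 and 264 CPM. Control 3 held 2 of them: RPS27 at 122 CPM (others 82.3 to 94.4) and RPL19 at 86.3 CPM (others 47.0 to 62.3). The ratio of RPL26L1 to RPL26 counts was 0.0409 in restricted 1, where the other restricted animals lay between 0.0266 and 0.0305. It was 0.0170 in control 7, where the other control animals lay between 0.0256 and 0.0316.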

How the results depend on the processing

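No paired analysis was possible because animals were numbered by accession and the labels pair no animals. The count of ribosomal protein genes called stayed at 0 under all 23 alternatives, and the count over all genes was 0 except with DESeq2, which called 1, MTSS1L (adjusted p = 0.0347). The count of ribosomal protein genes with a fold above 1 was 37, and leaving out each animal gave 19 to 70. Those with an interval inside 1.2-fold numbered 50 to 59 (61 with all animals). These 2 counts without each animal, the group means without control 3 and the median correlation within groups were added after seeing the data. Their median log2 fold change ran from −0.0532 with library size scaling, where the median of all genes was −0.0500, to 0.0573 without control 3. The median pairwise correlation ran from 0.506 to 0.699 with each animal left out. The RPL3L to RPL3 difference ran from −0.41 (without restricted 4, exact permutation p = 0.0297) to −0.23 (without restricted 2) with each animal left out, and 2 of 14 such p-values were under 0.05, the other being without control 4 (−0.40, p = 0.0408 by exact permutation). It was −0.19 (exact permutation p = 0.246) among titles ending in A. The RPL3L correlation with RPL3 was −0.42 by Spearman, −0.43 with library size scaling, −0.45 with group means removed, −0.41 without the 2 farthest animals and −0.64 to −0.33 with each animal left out, and the cause was not tested.

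Of 27 named genes, 13 kept the sign of their log2 fold change under every alternative, and the smallest adjusted p was 0.848. Library size scaling turned RPLP1 (−0.025), RPLP0 (−0.033), RPL26 (−0.049), RPL23A (−0.020), RPS19 (−0.021) and RPL7L1 (−0.044). Leaving out control 7, restricted 4 and restricted 7 turned RPL4 (0.038), RPS2 (0.039), RPL13 (0.022) and RPS4X (0.0033), and the first title letter as covariate turned RPL26 (−0.034). With each animal left out the value ran from −0.071 to 0.016 for RPL22, −0.083 to 0.025 for RPL22L1, −0.063 to 0.13 for RPL23A, −0.049 to 0.068 for RPL26, −0.055 to 0.046 for RPL4, −0.040 to 0.038 for RPL7L1, −0.022 to 0.061 for RPLP0, −0.019 to 0.077 for RPLP1, −0.036 to 0.14 for RPS19, −0.11 to 0.046 for RPS2, −0.0055 to 0.12 for RPS27L, −0.12 to 0.19 for the second row of RPS29 and −0.054 to 0.034 for RPS4X. Depth limits the second row of RPS29, whose mean was 10.6 counts.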
